A study of Mus musculus with 24 samples.

Results

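The genes of the mitochondrial protein import machinery were followed in RNASeq of cultured primary osteoblasts (OBs) from mouse parietal bones. They were taken by name: all genes whose symbol begins with Timm or Tomm followed by a digit, pseudogenes excluded, and Pam16, Dnajc19, Romo1, Samm50, Mtx1, Mtx2, Mtx3, Chchd4, Gfer, Pmpca and Pmpcb. This gave 37 genes of 55335, of which 36 encode protein subunits and 1, Tomm6os, is a transcript antisense to Tomm6. Both genotypes were cultured from 4 to 5 days old pups on a C57BL/6J background. WT cells carried the normal collagen genes, and Het cells carried 1 copy of the G610C knock-in, in which cysteine replaces a glycine of the Col1a2-encoded procollagen alpha2(I) triple helix. All cultures were kept in osteogenic differentiation medium, and RNA was taken 8, 14 or 21 days after plating. Each of the 6 groups of genotype and day has 4 libraries, 24 in all.

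Cells of several pups of a genotype were pooled before plating, so the libraries are wells and not animals, and p-values measure the spread between wells. The study's methods describe separate experiments with cells from different litters, plating densities and oxygen levels, and the labels do not say which library came from which. The counts per library ran from 17140202 to 59734231 with a median of 48340136. The 6 libraries of replicate 1 held 17140202 to 25825762 counts and all others at least 28159342, so replicate 1 may be a batch of its own. A technical batch and a separate cell preparation cannot be told apart here. Results are also given without replicate 1, and replicates 2 to 4 may be wells of the same preparation. The osteoblast markers Col1a1, Runx2, Sp7, Ibsp and Bglap were detected in all 24 libraries. Summed macrophage markers (Cd68, Adgre1, Csf1r and Ptprc) reached 328 to 1185 CPM (counts scaled to the library total) in the Het libraries of days 14 and 21 and 117 to 540 CPM in the WT libraries, and summed chondrocyte markers (Acan and Col2a1) ran from 529 to 10680 CPM in Het (median 731) and from 1428 to 8625 CPM in WT (median 2668) on those days. The smooth muscle markers Acta2 and Myh11 summed to 1284 to 2643 CPM over all groups. Nearly all of this was Acta2 (1280 to 2636 CPM), while Myh11 had 4.29 to 16.3 CPM. Cd33, of neutrophils and macrophages, reached at most 34.7 CPM. The part of these cells in the results below was not tested, and in bulk RNA fewer cells of a type and less RNA per cell cannot be told apart. The summed markers of endothelium, skeletal muscle, adipocytes and fibroblasts stayed at or below 1.36 CPM in all groups, and Ckm of skeletal muscle was at 0 in 17 libraries.

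Nearly all mitochondrial proteins are made in the cytosol and threaded into the organelle. Precursors are recognised by receptors of the outer membrane translocase (TOM) and pass through its Tomm40 channel. Those with a cleavable presequence continue through the inner membrane translocase TIM23, are pulled in by the PAM motor around the chaperone Hspa9, and are trimmed by the processing peptidase of Pmpca and Pmpcb. Multispanning carriers are escorted by small TIM chaperones to the TIM22 translocase, barrel-shaped outer membrane proteins are inserted by the sorting and assembly machinery (SAM), and cysteine-rich proteins of the intermembrane space are folded by the disulfide relay of Chchd4 and the oxidase Gfer. In OBs, as in other cells, these proteins supply an organelle that provides energy, and its share in matrix production was not measured here.

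Together the 37 genes took 0.111% to 0.164% of the counts of a library. Compared per kilobase of gene length, the mean level over 24 libraries was highest for the small chaperone Timm8b with 66.4 RPKM (counts per kilobase of gene, scaled to the library total; range 55.3 to 93.7) and for Romo1, a small TIM23 partner, with 66.1 RPKM (57.4 to 80.6). These ranges overlapped. The small TOM subunits Tomm6 and Tomm7 followed with 54.9 and 47.6 RPKM. Other genes share 84.2% of the exon bases of Tomm6, so its level may hold reads of these genes. The order also depends on the gene length used, that of all annotated exons of a gene together. The receptor Tomm22 had 33.1 RPKM, the TIM23 channel subunit Timm23 had 22.9 and the receptor Tomm20 had 16.3, whereas the pore Tomm40 had 9.12 RPKM and its paralog Tomm40l 4.68. The lowest subunit levels with clear counts were those of Timm8a1 (2.32 RPKM) and Chchd4 (1.79 RPKM). The receptor homolog Tomm20l had 4 to 31 counts per library. Timm8a2, a second copy of Timm8a1, had 0 or 1 count in every library, at or under the floor of 3 counts per library, and it was the only one of the 37 genes that did not pass the filter on low counts.

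**Figure D1:**
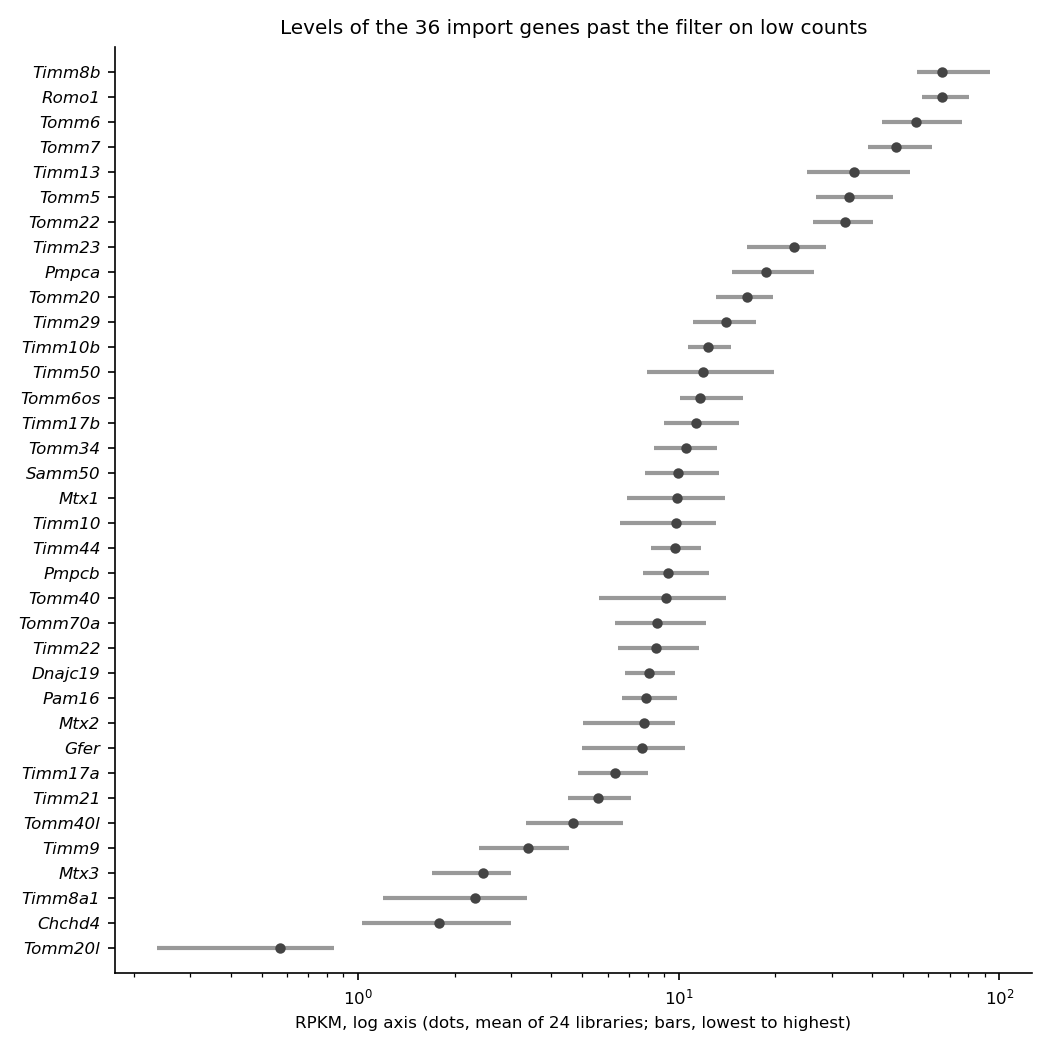
Mean RPKM (log axis) of the 36 import genes that passed the filter on low counts, with bars from the lowest to the highest of 24 libraries. The levels span from 0.569 RPKM for Tomm20l to 66.4 RPKM for Timm8b, and neighbours in the order mostly have overlapping ranges.

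Het and WT OBs were compared over days 14 and 21. Counts were scaled, library by library, to the geometric mean of the housekeeping genes Actb, Actg1, Sdha and Mrfap1 (relative quantity, RQ, given here in percent of that mean). Gfer, Timm8a1, Timm50 and Tomm40l were higher in Het OBs, and no import gene was lower, by edgeR's quasi-likelihood test at an adjusted p under 0.05. That is 4 of 36 genes tested, against 7.26% of 19839 genes called higher in Het and 8.88% called lower in the same fit. The median log2 ratio Het/WT of the 36 genes was 0.05 with 25 above 0, and that of all genes tested was -0.05. No import gene had all 8 Het libraries above all 8 WT libraries, an arrangement found in 0.398% of all genes, or all below, found in 0.524%. Both days are pooled in this count, so a change between the days can also make the genotypes overlap. The same count within a single day is not given here.

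**Figure D2:**
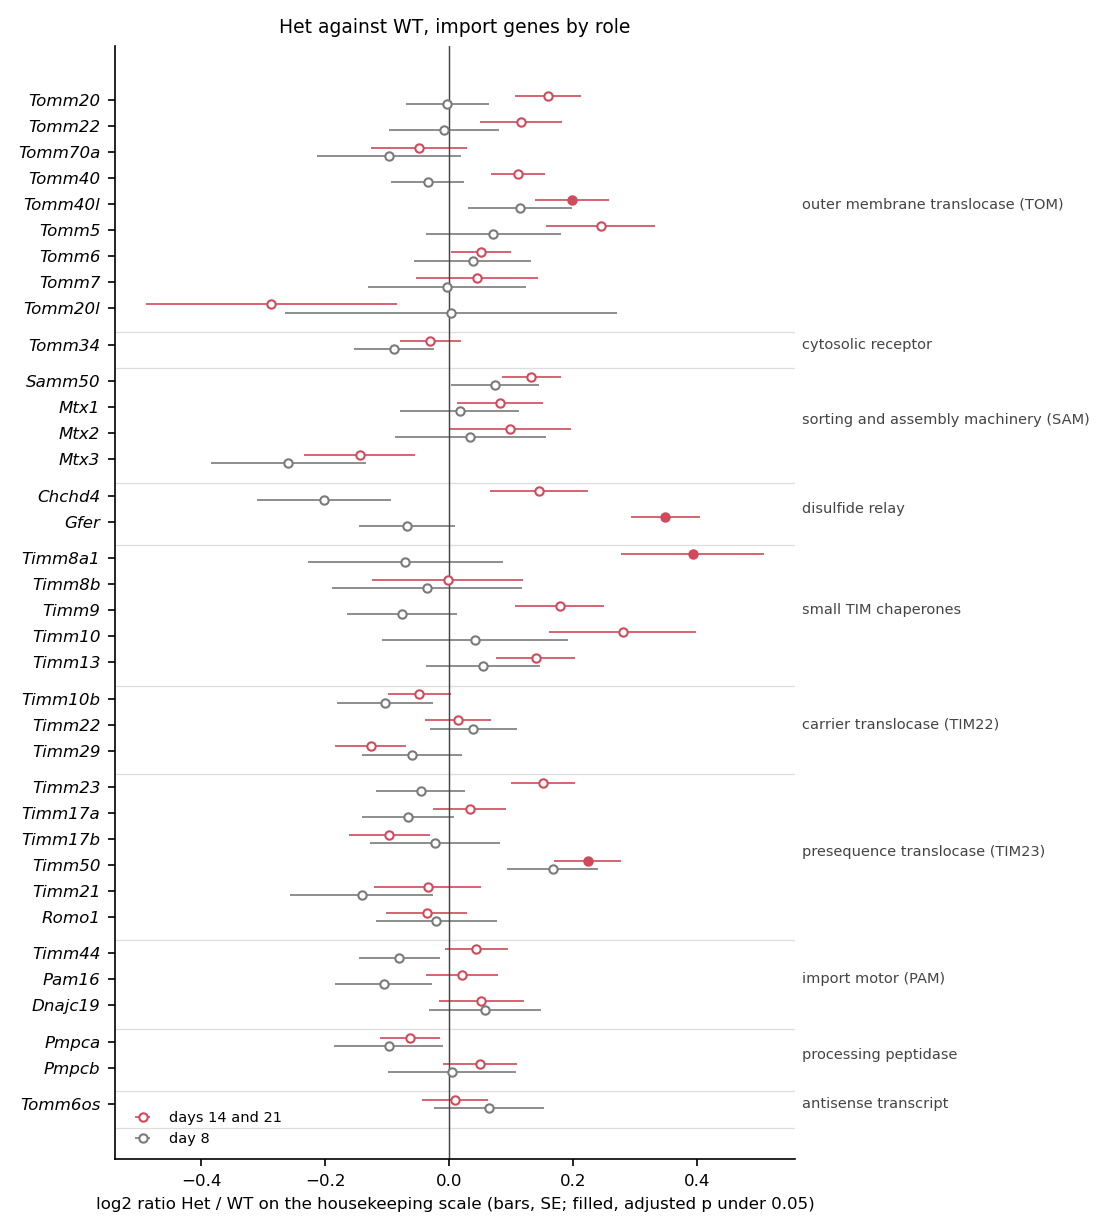
Log2 ratio Het/WT on the housekeeping scale for the 36 import genes, grouped by role, over days 14 and 21 (red) and at day 8 (grey), with SE bars and filled symbols where the adjusted p was under 0.05. Filled symbols mark Gfer, Timm8a1, Timm50 and Tomm40l over days 14 and 21, and there are none at day 8.

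In the disulfide relay, the oxidase Gfer (mm10, chromosome 17, 24693187 to 24696156) showed the smallest p of the import genes. In WT its RQ was 3.55, 2.87, 2.75 and 2.90% on day 14 and 2.67, 2.63, 2.75 and 2.42% on day 21 in replicates 1 to 4. In Het it was 3.77, 3.80, 3.75 and 3.61% on day 14 and 3.54, 3.40, 3.12 and 3.61% on day 21. Het was above WT in all 8 pairs of the same day and replicate number. With both days pooled the ranges overlapped only because WT replicate 1 of day 14 lay at 3.55%. Within each day all Het libraries lay above all WT libraries, and the share of all genes with this order is not given here. The log2 ratio was 0.35 ± 0.06 (SE, n = 8 and 8, edgeR adjusted p = 0.00153), and the ratio of mean RQ was 1.18 within replicate 1 and 1.31 within replicates 2 to 4. Gfer was also called on each day alone, with 0.31 ± 0.08 on day 14 (edgeR adjusted p = 0.0377) and 0.39 ± 0.08 on day 21 (edgeR adjusted p = 0.0206). It lost the call without replicate 2 or without replicate 4, where its log2 ratio stayed at 0.32 or above.

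The relay's import receptor Chchd4 (chromosome 6, 91462172 to 91473546), which Gfer keeps oxidised, was not called. The WT libraries ran from 1.19 to 2.08% RQ around a median of 1.42%, and the Het libraries from 1.28 to 1.80% around a median of 1.72% over days 14 and 21. The log2 ratio was 0.15 ± 0.08 (edgeR adjusted p = 0.227), with ratios of mean RQ of 0.929 within replicate 1 and 1.16 within replicates 2 to 4. With both days pooled the WT range holds the whole Het range, and Chchd4 fell between these days. On day 14 alone WT ran from 1.531 to 2.083% and Het from 1.735 to 1.802%. On day 21 alone the ranges overlapped in part, with 1.194 to 1.317% in WT and 1.277 to 1.701% in Het.

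In the TIM23 translocase, Timm50 (chromosome 7, 28305516 to 28312072), the receptor that hands presequences to the channel, was higher in Het in all 8 pairs. The WT libraries ran from 4.64 to 6.14% RQ around a median of 5.14%, and the Het libraries from 5.003 to 6.98% around a median of 6.07%, and 4 of 8 Het libraries lay above all WT libraries. This gave a log2 ratio of 0.22 ± 0.05 (edgeR adjusted p = 0.0131), with 1.09 within replicate 1 and 1.199 within replicates 2 to 4 as ratios of mean RQ. The channel subunit Timm23 had a log2 ratio of 0.15 ± 0.05 (edgeR adjusted p = 0.0552), which passed with the replicate number as a block (edgeR adjusted p = 0.0460). The other subunits did not pass: Timm17a had 0.03, Timm17b -0.10, Timm21 -0.03 and Romo1 -0.04, each with an SE of 0.06 to 0.09.

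Among the small TIM chaperones, Timm8a1 (chromosome X, 134537256 to 134541865), which escorts hydrophobic precursors across the intermembrane space, had the largest log2 ratio of the called genes. The WT libraries ran from 0.367 to 0.804% RQ around a median of 0.561%, and the Het libraries from 0.529 to 0.919% around a median of 0.680%. Het was higher in 7 of 8 pairs, and the highest WT value was that of replicate 1 on day 14. The log2 ratio was 0.39 ± 0.12 (edgeR adjusted p = 0.0302), with a ratio of mean RQ of 0.968 within replicate 1 and 1.45 within replicates 2 to 4. The count behind it was 56 to 252 per library. Timm10 had 0.28 ± 0.12 (edgeR adjusted p = 0.117), and its ratio of mean RQ was 0.805 within replicate 1 and 1.41 within replicates 2 to 4. Its partner in the carrier pathway, Timm9, had a log2 ratio of 0.18, Timm13 had 0.14 and Timm8b -0.002, and none of these passed.

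In the TOM complex, Tomm40l (chromosome 1, 171216011 to 171222514), a paralog of the channel protein, was the one gene called. The WT libraries ran from 3.72 to 4.89% RQ around a median of 4.26%, and the Het libraries from 4.49 to 5.70% around a median of 4.97%, and 4 of 8 Het libraries lay above all WT libraries. This gave a log2 ratio of 0.20 ± 0.06 (edgeR adjusted p = 0.0340), with ratios of mean RQ of 1.009 within replicate 1 and 1.197 within replicates 2 to 4. Of its annotated exon bases, 64.3% lie under Nr1i3 on the opposite strand, and since the strand rule of the counting is not given in the sources used here, reads of the 2 genes cannot be told apart. The main channel Tomm40 had 0.11 ± 0.04 (edgeR adjusted p = 0.0910). The receptors Tomm20, Tomm22 and Tomm70a had 0.16, 0.12 and -0.05, the edgeR adjusted p for Tomm20 being 0.0513.

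The SAM, TIM22, motor and peptidase subunits held no call. Samm50, the barrel that inserts outer membrane proteins, had a log2 ratio of 0.13 ± 0.05 (edgeR adjusted p = 0.0661) and passed with the replicate block (edgeR adjusted p = 0.0477). Its partners Mtx1 and Mtx2 had 0.08 ± 0.07 and 0.10 ± 0.10. The carrier channel Timm22 had 0.01, the motor scaffold Timm44 had 0.04, and the peptidase subunits Pmpca and Pmpcb had -0.06 and 0.05. Of the remaining genes, the small TOM subunit Tomm5 had 0.24 ± 0.09 (edgeR adjusted p = 0.0671), a larger log2 ratio than those of the called Timm50 and Tomm40l. Mtx3 had -0.14, the TIM22 subunits Timm29 and Timm10b had -0.13 and -0.05, and the motor subunits Pam16 and Dnajc19 had 0.02 and 0.05. Tomm34, a cytosolic receptor for precursors, and Tomm6, Tomm7, Tomm6os and Tomm20l had log2 ratios from -0.29 (Tomm20l, at 4 to 31 counts) to 0.05, and none of these passed.

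**Figure D3:**
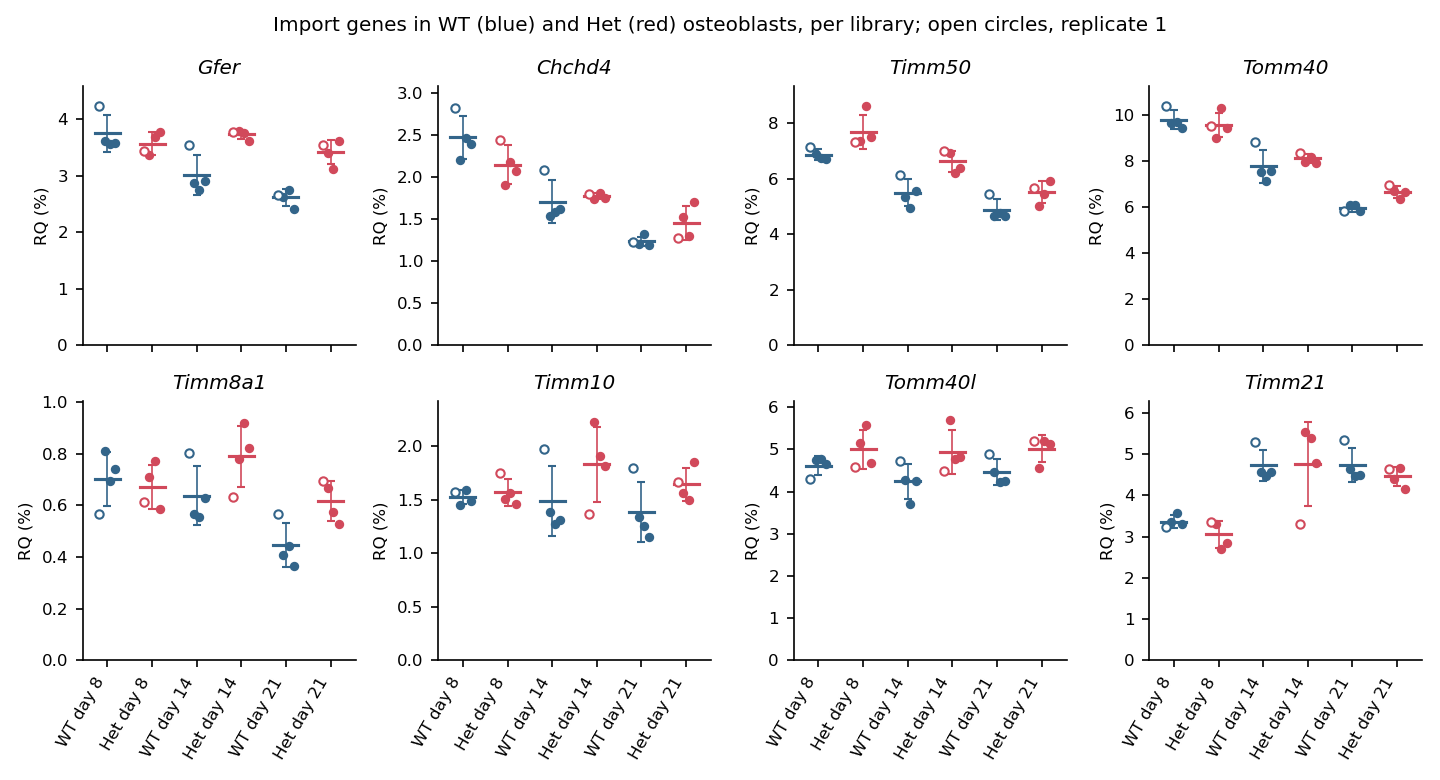
RQ in percent of 8 import genes in each library, by genotype and day (WT blue, Het red; bars, mean and SD of 4 libraries; open circles, replicate 1). The WT day 14 library of replicate 1 is the highest of its group in the Gfer, Chchd4, Timm50, Tomm40, Timm8a1, Timm10, Tomm40l and Timm21 panels, and Tomm40 and Chchd4 fall from day 8 to day 21 in both genotypes.

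The count of calls depended on replicate 1. Within replicates 2 to 4 the same test called 15 import genes higher in Het, against 17.2% of all genes, and 1 lower (Timm29, a TIM22 subunit, -0.19 ± 0.04), against 22.2% of all genes. The 15 were the 4 genes named above, Chchd4, Samm50, Mtx2, Tomm5, Tomm20, Tomm22, Tomm40, Timm9, Timm10, Timm13 and Timm23. Within replicate 1 alone 13 of 36 genes had a ratio of mean RQ above 1, and within replicates 2 to 4 there were 28. Shares of all genes with such a ratio are not given here, so these counts do not tell import genes from all genes. Leaving out 1 library, WT day 14 replicate 1 or Het day 14 replicate 1, raised the count to 12 or 10, against 9.79% and 10.2% of all genes called higher. Without replicate 3 the count was 1, Gfer, and without replicate 2 or replicate 4 it was 0, with 8 and 8 libraries reduced to 6 and 6 in each case. Calls over all genes fell with them, to 0.61% higher in Het without replicate 3, 0.731% without replicate 2 and 0.384% without replicate 4. On the TMM scale, which sets the typical gene at no change, 13 import genes were higher, against 12.4% of all genes, and none lower.

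At day 8 no import gene was called by edgeR, with 0.631% of 20434 genes called in either direction. 1 import gene had an unadjusted p under 0.05 (Timm50, 0.17 ± 0.07), and DESeq2 called none. Shares of all genes are not given for these counts. The median log2 ratio of the 36 genes was -0.02 and that of all genes was -0.07. Within replicates 2 to 4, where 17.3% of all genes were called, 2 import genes were, namely Timm50 (0.21 ± 0.07) and the SAM subunit Mtx3 (-0.34 ± 0.09). On that day Gfer stood at 4.24, 3.62, 3.56 and 3.58% in the WT libraries and 3.44, 3.36, 3.69 and 3.78% in the Het libraries, with a log2 ratio of -0.07 ± 0.08. The groups overlap.

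Whether the genotype difference changed between day 8 and the later days was tested as the difference of the log2 ratios. No import gene passed by edgeR, with 0.171% of all genes called. There were 5 import genes at an unadjusted edgeR p under 0.05, and 1 called by DESeq2 (Gfer). For the unadjusted and DESeq2 counts no share of all genes is given, so they do not tell import genes from all genes. The largest difference was that of Timm8a1, 0.46 ± 0.19 (edgeR adjusted p = 0.740), followed by Gfer with 0.42 ± 0.10 (edgeR adjusted p = 0.111) and Chchd4 with 0.35 ± 0.13 (edgeR adjusted p = 0.645). Within replicates 2 to 4, where 4.72% of all genes were called, the difference passed for 4 import genes: Timm8a1 (0.66 ± 0.15), Timm10 (0.48 ± 0.12), Chchd4 (0.42 ± 0.11) and Gfer (0.38 ± 0.08). On day 14 alone, Gfer and Timm50 were higher in Het, against 1.93% of all genes, and Tomm5 passed too with the replicate block. On day 21 alone Gfer was, against 0.651%. A call on 1 day and not on the other does not show that the days differ.

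Ratios of 2 related import genes within a library do not depend on the library scale. 6 pairs of paralogs or partners were compared between genotypes over days 14 and 21 by a two-sided exact permutation test, whose smallest possible p with 8 and 8 libraries is 0.000155. Counts of Timm10 over counts of Timm10b, a subunit of the membrane-bound TIM22 complex, were 0.180, 0.148, 0.128 and 0.133 in WT on day 14 and 0.183, 0.144, 0.146 and 0.138 on day 21. In Het the ratio was 0.148, 0.203, 0.196 and 0.193 on day 14 and 0.186, 0.184, 0.189 and 0.203 on day 21. Apart from replicate 1, all Het values lay above all WT values. The ratio was 1.26-fold higher in Het (exact permutation p = 0.00171, adjusted over the 6 pairs 0.0103), 0.917-fold within replicate 1 and 1.40-fold within replicates 2 to 4. With swaps only within pairs of the same day and replicate number, the adjusted exact permutation p was 0.0938, and without replicate 2, 3 or 4 it was 0.104 to 0.117. At day 8 it was 1.10-fold (exact permutation p = 0.229).

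For Timm8a1 over Timm8b the Het/WT fold was 1.33 (exact permutation p = 0.0361, adjusted 0.0721), and for Pmpca over Pmpcb it was 0.928 (exact permutation p = 0.0267, adjusted 0.0721). Neither passed after adjustment with all libraries. Both passed without replicate 1, with a fold of 1.41 for Timm8a1 over Timm8b (adjusted exact permutation p = 0.0494) and 0.918 for Pmpca over Pmpcb (adjusted exact permutation p = 0.0476). Timm17a over Timm17b, alternative subunits of the TIM23 channel, had a fold of 1.09, Tomm40 over Tomm40l had 0.944 and Mtx1 over Mtx2 had 1.008, with adjusted exact permutation p of 0.215, 0.573 and 0.970. Annotated exons of other genes cover 22.1% of Timm10b, 30.1% of Mtx1, 20.4% of Pmpca and 15.6% of Timm8b, mostly on the opposite strand.

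**Figure D4:**
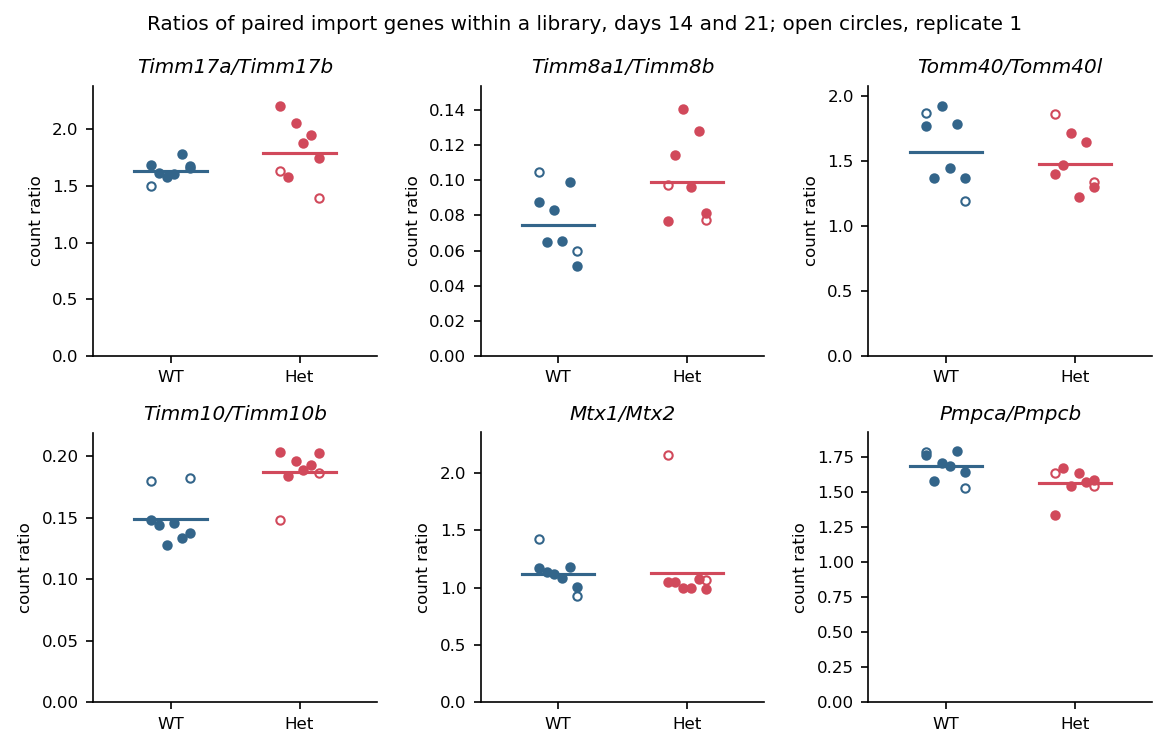
Count ratio of 6 pairs of import genes within each library of days 14 and 21, WT (blue) and Het (red), with geometric means as lines and replicate 1 as open circles. For Timm10/Timm10b the 6 Het libraries of replicates 2 to 4 lie above the 6 WT libraries of the same replicates, and the replicate 1 circles do not follow this order.

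The later cultures (days 14 and 21) were then compared with day 8 over both genotypes. Marker genes moved over the same days, and their part in the changes was not tested. In WT the median of summed macrophage markers was 31.5 CPM on day 8 and 381 CPM later, that of chondrocyte markers 12310 and 2668 CPM, and that of osteoblast markers 24090 and 79820 CPM. In Het these medians were 95.4 and 554 CPM, 6810 and 731 CPM, and 20150 and 58040 CPM. Most genes rose on the housekeeping scale (median log2 ratio of all 20434 genes 0.16), and this median was 0.01 on the TMM scale. Of the 36 import genes, 26 lay below the median of all genes and 10 above it. The shift of 0.14 between the scales moves all genes nearly alike. The split was therefore the same on the TMM scale, which is no separate support for it. On the housekeeping scale 9 import genes rose, against 40.9% of all genes, and 10 fell, against 17.4%. On the TMM scale 4 rose, against 30.1% of all genes, and 20 fell, against 29.6%. The 10 genes that fell included the channel of the outer membrane, the presequence receptor and both members of the disulfide relay, while all 3 motor subunits rose on the housekeeping scale.

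**Figure D5:**
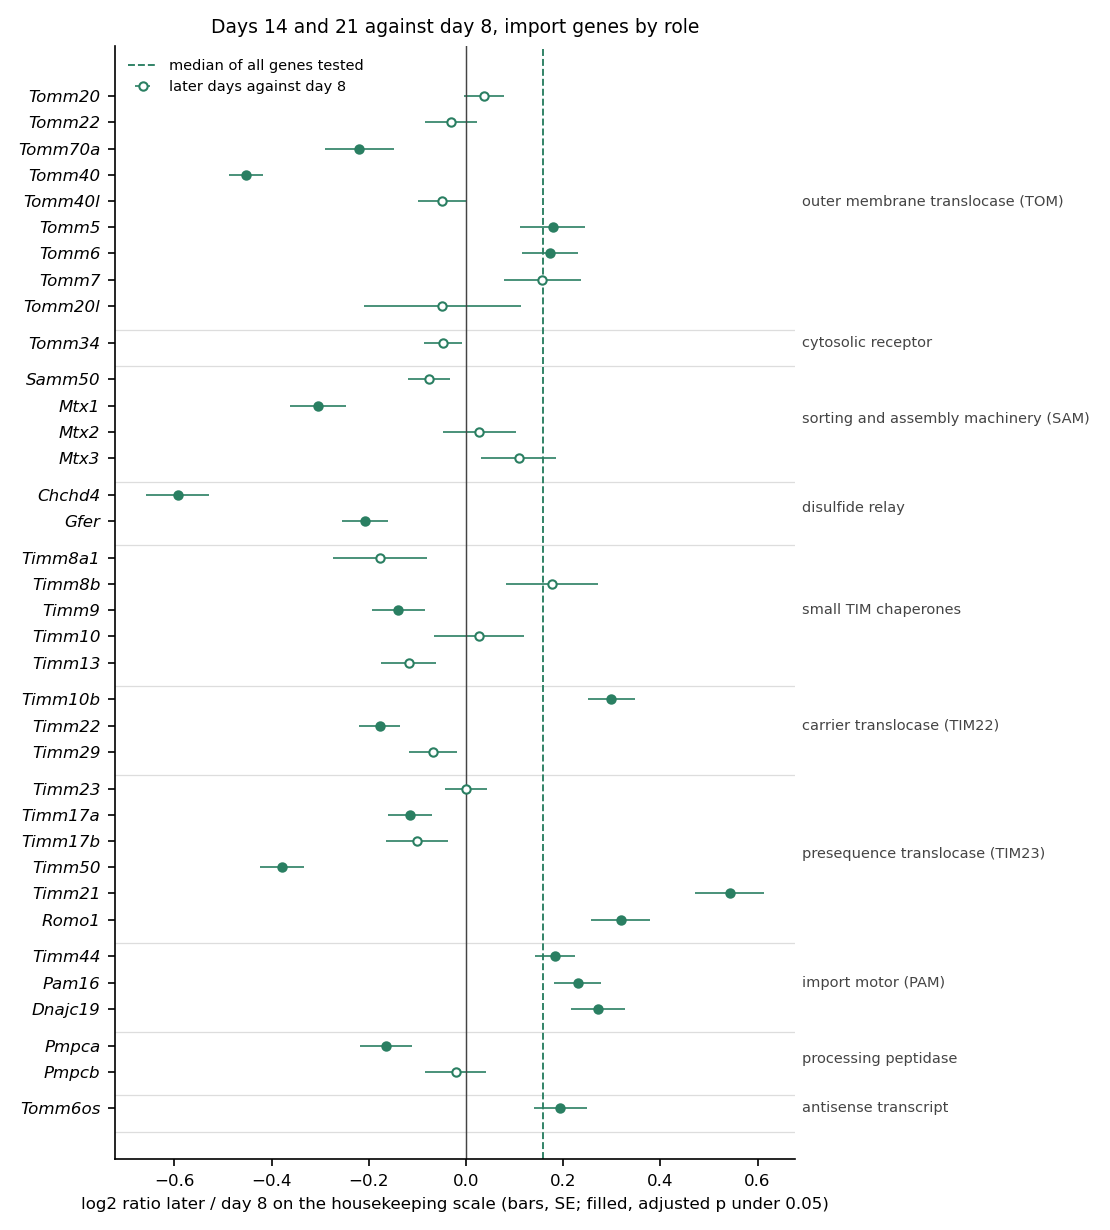
Log2 ratio of days 14 and 21 to day 8 on the housekeeping scale for the 36 import genes by role (SE bars, filled where the adjusted p was under 0.05); the dashed line is the median of all genes tested, 0.16. Tomm40, Chchd4 and Timm50 lie furthest to the left and Timm21 furthest to the right.

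Chchd4 fell the most. Its RQ on day 8 was 2.82, 2.20, 2.46 and 2.38% in WT and 2.44, 1.90, 2.18 and 2.07% in Het. On day 21 it was 1.22, 1.2, 1.32 and 1.19% in WT and 1.28, 1.52, 1.29 and 1.70% in Het. On day 14 the values were 2.083, 1.531, 1.585 and 1.621% in WT and 1.791, 1.735, 1.802 and 1.742% in Het. The later libraries overlapped those of day 8 through WT day 14 replicate 1, since the lowest day 8 value was 1.90%. The log2 ratio of the later days to day 8 was -0.59 ± 0.07 (edgeR adjusted p = 8.67e-08), or -0.75 relative to the median gene. It was -0.77 ± 0.09 in WT and -0.42 ± 0.09 in Het, and the difference between these is the interaction given above, which did not pass.

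The channel Tomm40 (chromosome 7, 19701313 to 19715438) ran from 9.01 to 10.4% on day 8 and from 5.81 to 8.80% later. It was the only import gene whose later libraries all lay below all day 8 libraries, an arrangement shared by 2.7% of all genes; no import gene had the reverse order, found in 11% of all genes. The log2 ratio was -0.45 ± 0.04 (edgeR adjusted p = 4.62e-10). Timm50 went from 6.70 to 8.61% on day 8 to 4.64 to 6.98% later, with a log2 ratio of -0.38 ± 0.04 (edgeR adjusted p = 2.24e-07). Mtx1 of the SAM complex fell by 0.30 and the receptor Tomm70a, which takes carrier precursors, fell by 0.22 on the log2 scale. Gfer, Timm22, Pmpca, Timm9 and Timm17a made up the rest of the 10, with log2 ratios from -0.21 to -0.12.

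Among the genes that rose, Timm21, which links TIM23 to TOM and to respiratory chain assembly, went from a median RQ of 3.31% on day 8 (2.71 to 3.58%) to 4.60% later (3.31 to 5.55%). The groups overlapped through Het day 14 replicate 1, which at 3.31% was the lowest later library. The log2 ratio was 0.54 ± 0.07 (edgeR adjusted p = 1.22e-06), and 0.39 on the TMM scale. Romo1 rose by 0.32 ± 0.06, Timm10b by 0.30 ± 0.05 and Dnajc19, a J-domain protein of the motor, by 0.27 ± 0.06, and these 3 also rose on the TMM scale, by 0.13 to 0.17. Scaled to total counts Romo1 had 0.01, whereas Dnajc19 and Timm10b turned to -0.03 and -0.005. Pam16, which restrains the motor's J-domain protein, rose by 0.23 ± 0.05 and Timm44 by 0.18 ± 0.04 on the housekeeping scale. Both were uncalled on the TMM scale (0.08 and 0.03) and negative on total counts (-0.07 and -0.12, the latter called lower). Tomm5, Tomm6 and Tomm6os, with 0.17 to 0.19, were likewise uncalled on the TMM scale and below 0 on total counts. Tomm6 and Tomm6os overlap each other and share 84.2% and 51.3% of their exon bases with other genes.

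The remaining core subunits did not pass on the housekeeping scale. Timm23 had a log2 ratio of -0.0001, Tomm20 0.04, Tomm22 -0.03, Samm50 -0.08 and Timm17b -0.10, and of these Timm23, Tomm22, Samm50 and Timm17b were called lower on the TMM scale. With the replicate block Tomm7 was added to the genes that rose (0.16 ± 0.07), and Timm13 (-0.12 ± 0.05) and Timm17b (-0.10 ± 0.04) to those that fell.

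Within WT, 5 import genes rose, against 31.3% of all genes, and 9 fell, against 13.7%. Within Het, 7 rose, against 33.7%, and 5 fell, against 11.7%. This balance depended on the scale, since on the TMM scale 1 rose and 21 fell within WT and 1 rose and 15 fell within Het, against 23.7% and 23.1% of all genes called lower. With the replicate block Pmpca and Tomm70a also fell within WT, making 11. Gfer had a log2 ratio of -0.42 ± 0.07 in WT (edgeR adjusted p = 2.59e-05) and 0.00 ± 0.07 in Het (edgeR adjusted p = 0.991). Timm8a1 had -0.41 ± 0.14 in WT (edgeR adjusted p = 0.0181) and 0.06 ± 0.14 in Het (edgeR adjusted p = 0.787). For both genes the difference between WT and Het is the interaction given above, which did not pass by edgeR with all libraries. Timm50 fell in both, by 0.41 ± 0.06 in WT and by 0.35 ± 0.06 in Het.

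Between days 14 and 21 no import gene rose, against 13.3% of all genes, and 9 fell, against 5.94%: Tomm40 (-0.33 ± 0.04, edgeR adjusted p = 0.000148), Chchd4 (-0.37 ± 0.08, edgeR adjusted p = 0.00368), Timm8a1, Timm23, Timm50, Timm9, Timm13, Timm10b and Gfer. Of these 9, Chchd4, Gfer, Timm50, Timm9 and Tomm40 had also fallen against day 8, whereas Timm10b had risen on the housekeeping scale. The median log2 ratio of the 36 genes was -0.09 with 31 below 0, and that of all genes was 0.06. On the TMM scale 17 fell, against 10.6% of all genes. With the replicate block Timm9 was no longer called (edgeR adjusted p = 0.0516) and Mtx1 was (-0.17 ± 0.05, edgeR adjusted p = 0.0286). The count was 2 without replicate 2 or replicate 4 and 3 without replicate 3, and Tomm40 and Chchd4 were called in each of these. The share of all genes called lower was 3.35%, 2.05% and 2.49% without replicates 2, 4 and 3.

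Partner genes of the pathway, 24 in all, were read from the same fits, and 23 were found by name (Minos1 was not). Between genotypes over days 14 and 21, 2 of the 23 were higher in Het, against 7.26% of all genes, and none were lower, against 8.88%. The share that was higher was thus near that of all genes. Hspa9, the mitochondrial chaperone that drives the PAM motor, had an RQ of 35.8 to 47.6% in the WT libraries, with a median of 40.7%, against 56.0 to 91.4% in the Het libraries, with a median of 65.4%, so that every Het library lay above every WT library. Its log2 ratio was 0.75 ± 0.07 (edgeR adjusted p = 2.60e-05), while the motor subunits Timm44, Pam16 and Dnajc19 had 0.02 to 0.05 and none of these passed. At day 8 its log2 ratio was 0.03 ± 0.11, and the difference between the later days and day 8 passed (0.72 ± 0.14, edgeR adjusted p = 0.0338). Immt, the core of the cristae-organising MICOS complex, had 0.17 ± 0.04 (edgeR adjusted p = 0.0170) and was higher in all 8 pairs. The matrix chaperonins Hspd1 and Hspe1 were not called between genotypes.

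Against day 8, 6 of the 23 partner genes rose and 4 fell, in the fit in which 40.9% of all genes rose and 17.4% fell, so the share that fell was near that of all genes. Pink1, a kinase that import normally routes to degradation, rose by 1.02 ± 0.08, from a median RQ of 7.69% to 14.97%, and the inner membrane peptidase subunits Immp1l and Immp2l rose by 0.47 and 0.31. Hspd1 fell by 0.42 ± 0.05, Aifm1, a binding partner of Chchd4, by 0.30 ± 0.05 and Hspe1 by 0.28 ± 0.07. Between days 14 and 21, 1 of the 23 rose, against 13.3% of all genes, and 4 fell, against 5.94%. Pink1 rose again (0.46 ± 0.09), and Hspd1, Hspe1, Aifm1 and the MICOS partner Dnajc11 fell.

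RefSeq promoter windows (GRCm38.p6, the assembly also called mm10; 250 bases before to 50 after a start site) were matched by symbol for 34 of the 37 genes, all but Tomm7, Tomm40l and Timm21. Letters of 3 known motifs were searched on both strands. The ETS core CCGGAAG stood in windows of 15 of the 34 genes (44.1%), against 9.93% of all 27025 genes and 17.6% of the 12676 genes tested that had a window. The consensus of NRF1 (nuclear respiratory factor) stood in 5 (14.7%), against 5.19% and 9.90%, and TGATGNAA, a C/EBP-ATF composite element, in none, against 4.51% and 2.83%. ETS and NRF1 family factors are known regulators of nuclear genes for mitochondrial proteins. A match of letters shows neither a bound site nor a cause of the changes above.

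For genes called against day 8 or between genotypes, the match nearest to and wholly before the start site is shown so that the letters can be compared. Each is a stretch of 30 bases, 5′ to 3′ on the gene's strand, with the match in capitals (CTTCCGG is the ETS core on the other strand). The NRF1 matches lay in Romo1 (chr2:156144011-156144040, plus strand), Chchd4 (chr6:91473600-91473629, minus) and Pam16 (chr16:4624947-4624976, minus), ending 202, 186 and 5 bases before the start site.
Romo1 NRF1: ggaacgtaccGCGCAGGCGCagtccccggg
Chchd4 NRF1: tttcactggtGCGCGTGCGCgctgcaagat
Pam16 NRF1: acgcgtcgcgtccttGCGCACGCGCtctcc
The ETS matches lay in Pmpca (chr2:26389284-26389313, plus), Romo1 (chr2:156144184-156144213, plus), Mtx1 (chr3:89213908-89213937, minus) and Tomm70a (chr16:57121684-57121713, plus), ending 46, 31, 3 and 1 bases before the start site.
Pmpca ETS: ggctcggcgggCCGGAAGccagcgccgaac
Romo1 ETS: tgcgctgtgctCCGGAAGcgatcccacgga
Mtx1 ETS: ccgacgcatacgagaaggtgCTTCCGGgtc
Tomm70a ETS: gtctagcccggcatgccccgggCTTCCGGt
Genes with a match moved both ways over days: Romo1 and Pam16 rose on the housekeeping scale, and Chchd4, Pmpca, Mtx1 and Tomm70a fell. The windows of Gfer, Timm50 and Timm8a1, which were higher in Het, held none of the 3 motifs.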

How the data were processed

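Polyadenylated RNA of WT and Het OBs had been sequenced by the authors from Illumina TruSeq libraries. The deposited files hold raw read counts per gene, 1 library each, made per the labels with cutadapt 2.5, STAR 2.73a and featureCounts 1.6.4 on mm10. Whether strand was used in counting, and how multiply mapped reads were treated, is not given in the sources used here. The deposited gene length column served for RPKM, and all 37 gene identifiers and lengths matched GENCODE M21. The members, gene lists and tests were chosen with earlier results of these data known.

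Counts were fitted with edgeR 4.0.16 (quasi-likelihood test, filterByExpr, Benjamini-Hochberg adjustment over all genes tested, calls at 0.05), with the geometric mean of 4 housekeeping genes as library size. Sdha, one of them, itself encodes a mitochondrial protein. Days 14 and 21 were fitted with day and genotype over 16 libraries, and other contrasts over the means of 6 groups in 24 libraries. The fit was tested on simulated data. Named genes were the called members with the largest changes, a fixed list of core subunits, the members of the 6 pairs, members called at day 8 or in the interaction, members at or under 3 counts and called pathway partners. Timm9, Timm13, Timm29, Mtx3, Tomm5, Tomm6, Tomm6os, Tomm7, Tomm20l and Tomm34 fall outside this rule and were named after their values were seen. Alternatives were other scales (TMM, DESeq2 1.42.0 size factors, total counts, housekeeping sets without 1 gene), the DESeq2 Wald test, other filters, a replicate block and left-out replicates or libraries. WT and Het libraries of the same day and number deviated together from their group means, with 12 correlations over genes of 0.237 to 0.775. For 36 pairs of different numbers they were -0.632 to 0.469. All negative correlations were between replicate 1 and another number. Among replicates 2 to 4 the same number gave 0.237 to 0.506 and different numbers gave 0.098 to 0.469. The numbers were used as pairs, but the correlations set replicate 1 apart rather than pairing replicates 2 to 4. Counts carry no molecular identifiers.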

Additional observations from a re-analysis of the deposited data

Results flagged for a closer look

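In 29 of 216 groups of 4 libraries, 1 library stood apart from the other 3 by Dixon's test on RQ, where chance alone marks about 1 in 20 groups (10.8 of 216). Of these 29, 20 were libraries of replicate 1, 6 of replicate 2, 1 of replicate 3 and 2 of replicate 4. All values are RQ in percent.

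WT day 14 replicate 1 was the highest of its group for 8 genes, namely Timm10 (1.973), Tomm5 (6.313), Pmpcb (10.06), Tomm7 (12.7), Chchd4 (2.083), Timm13 (10.88), Timm21 (5.299) and Timm17b (6.888). WT day 8 replicate 1 was the highest for Pmpca (20.56), Gfer (4.236, the next being 3.62) and Timm17b (6.894). WT day 21 replicate 1 was the highest for Pmpcb (10.4), Tomm7 (13.42) and Tomm22 (12.24). Het day 8 replicate 1 was the highest for Dnajc19 (6.504) and Pmpcb (11.76), and Het day 21 replicate 1 for Romo1 (11.93), Mtx1 (6.88), Timm29 (9.909) and Tomm70a (16.79). These 20 values were all the highest of their group.

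Het day 14 replicate 2 was the highest for Timm44 (9.026) and Timm8b (10.18, the next being 6.545) and the lowest for Timm29 (7.38). Het day 21 replicate 2 was the lowest for Timm17a (8.181), Tomm40l (4.548, the next being 5.121) and Pam16 (3.313). Het day 8 replicate 3 was the highest for Timm50 (8.606), and WT day 21 replicate 4 was the lowest for Mtx1 (5.348) and Tomm20 (13.82).

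Outside the 37 genes, the partner Hspa9 differed in its genotype effect between the later days and day 8 by a test of the difference itself. Its log2 ratio Het/WT was 0.03 at day 8, and the difference was 0.72 (0.7193) with an edgeR adjusted p of 0.0338.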

How the results depend on the processing

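The number of import genes called between genotypes over days 14 and 21 (4 in the report) was 13 on the TMM scale and with DESeq2 size factors, 10 with the DESeq2 Wald test, 15 on total counts, 8 without Actb, 7 with all other libraries in the fit, and 2 without Sdha, without a filter on low counts or when a change of over 20% was required. It was 0 to 16 with a replicate or library left out. The share of all genes called higher in Het moved too, from 7.26% on the housekeeping scale to 12.4% on the TMM scale. Counts given here without such a share do not tell import genes from all genes. For day 14 alone (2) the count was 6 on TMM, 4 with DESeq2 Wald, 5 with DESeq2 size factors, 9 on total counts, 1 without Actg1, and 0 without Sdha, without the filter or with libraries of that day only, and 0 to 19 in leave-outs. For day 21 alone (1) it was 3 on total counts, 0 without Sdha or the filter, and 0 to 7 in leave-outs. At day 8 (0) leave-outs gave 0 to 2, and for the interaction (0) DESeq2 Wald gave 1 and leave-outs 0 to 4. For day 21 against day 14 (9) it was 17 on TMM and with DESeq2 size factors, 16 on total counts, 5 without Sdha or the filter, 3 with the 20% rule, and 2 to 12 in leave-outs. Of all genes, 5.94% were called lower on the housekeeping scale and 10.6% on the TMM scale. Against day 8 (19, of which 9 rose) it was 7 with the 20% rule, 27 on total counts (1 rose and 26 fell), 22 with the replicate block and 12 to 20 in leave-outs. On total counts the log2 ratio against day 8 turned negative for Tomm5 (-0.13), Tomm6 (-0.13), Tomm6os (-0.11), Tomm7 (-0.15), Timm8b (-0.13), Mtx3 (-0.19), Dnajc19 (-0.0307), Mtx2 (-0.28), Pam16 (-0.0732), Timm10 (-0.28), Timm10b (-0.0051), Timm44 (-0.12) and Tomm20 (-0.27).

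With permutation within days the Het/WT ratio of Timm8a1 over Timm8b was 1.328 and passed (adjusted exact permutation p = 0.038). With the replicate block that of Timm10 over Timm10b was 1.257 and did not. With a replicate left out the Het/WT ratios ran from 1.049 to 1.142 for Timm17a over Timm17b, 1.252 to 1.414 for Timm8a1 over Timm8b, 0.908 to 0.971 for Tomm40 over Tomm40l, 1.196 to 1.397 for Timm10 over Timm10b, 0.920 to 1.044 for Mtx1 over Mtx2 and 0.918 to 0.939 for Pmpca over Pmpcb. Without replicate 1, 5 of the 6 pairs passed, Tomm40 over Tomm40l being the exception, and Mtx1 over Mtx2 (0.920) did so in the other direction. Timm10 over Timm10b did not pass without replicate 2, 3 or 4. The replicate block changed no call other than those given in the report. The falls of Chchd4, Tomm40 and Timm50 and the rise of Timm21 against day 8 held in all 12 other settings and 28 leave-outs. Where counts changed, the cause was not tested. Each leave-out also had fewer libraries, and the part of this was not tested either. Wells share pooled cells, so the spread between them may be technical, and intervals of low counts such as those of Timm8a1 and Tomm20l are limited by depth.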
